A study of Mus musculus with 6 samples.

Results

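A set of 3666 CpG-rich promoters had no H3K56ac peak in mouse embryonic stem cells (mESCs). They were the promoters of protein-coding genes on the autosomes that held no base of a peak within 3 kb of any annotated transcription start site (TSS), out of 9819 autosomal genes with a CpG-rich promoter. The share without a peak was therefore 37.3% of the CpG-rich promoters, and this percentage is the background for each gene list below. A promoter counted as CpG-rich when its CpG observed/expected ratio, the number of CpG dinucleotides divided by the number that the C and G content would give, exceeded 0.6 in the 1 kb centred on the gene's 5′ end. The other 6153 CpG-rich promoters had a peak and served for comparison. The members were selected on peak positions and CpG ratio, so their lack of a peak is a description and carries no test. Motifs, gene length and gene function were not used in that selection. The number of TSS of a gene entered it, since a peak near any of them counted. Neighbouring genes entered it too, since a peak at a neighbour's start within 3 kb also counted.

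The peaks came from ChIP-seq of acetylated lysine 56 of histone H3 (H3K56ac) in the mESC line V6.5, which was kept undifferentiated on feeder cells in medium with serum and LIF. All cells carried a lentiviral shRNA, either a scrambled control (Scramble) or one against *Sirt6* (*Sirt6* KD), whose product deacetylates this residue. Each group comprised 2 H3K56ac libraries and 1 input DNA library, 6 in all. The processed file was 1 merged set of 11106 peak positions, which gave neither the library, the group nor the height of a peak. A promoter without a peak thus lacked one in this merged set, and these positions allow no comparison between the groups. The paper lists more peaks for each *Sirt6* KD library than for each Scramble library. A promoter with a peak may therefore have had it in *Sirt6* KD cells only, which could not be told here. At the paper's own cutoff, 1 *Sirt6* KD library had more peaks than the merged set. Whether a promoter without a peak had one in a single library could not be told either. The depth of the libraries was not used here. Ranges after a share are Wilson 95% confidence intervals and cover counting error only. Genes share promoters and families and are not replicates, so no p-values were computed. A promoter whose acetylation stayed below the detection limit could not be told apart from one that lacked the mark, and the share of peaks that came from feeder cells was not tested.

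CpG-rich promoters, most of them CpG islands, are the start sites of a large share of mammalian genes, including most housekeeping genes and many regulators of development. In most tissues they stay free of DNA methylation whether or not the gene is transcribed. Acetylation of H3K56, a residue at the side of the nucleosome where DNA enters and leaves, accompanies active promoters and enhancers in mammalian cells. In mESCs the promoters of many lineage regulators are held silent by Polycomb complexes, which methylate H3K27, while housekeeping promoters are transcribed.

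As examples of sequence, and not as typical promoters, the 200 bases before the 5′ end of some genes are given. These were the genes of highest CpG ratio in 5 lists of genes without a peak and in 2 housekeeping lists with a peak. The sequences were read from RefSeq's GRCm38.p6, the assembly behind mm10, 5′ to 3′ on the strand of the gene, with CpG in capitals. The 5 promoters without a peak belonged to *Hoxa5*, a Hox patterning gene (chr6:52204588-52204787, minus strand), *Barhl2*, a homeobox gene of the nervous system (chr5:106458167-106458366, minus strand), *Wnt5b*, a secreted Wnt ligand (chr6:119544348-119544547, minus strand), *Kcng3*, a potassium channel subunit (chr17:83631896-83632095, minus strand), and *Tdrd5*, a tudor-domain gene of male germ cells (chr1:156303665-156303864, minus strand). The 2 with a peak belonged to *Rpl34*, a protein of the large ribosomal subunit (chr3:130730399-130730598, minus strand), and *Psmc1*, an ATPase of the proteasome (chr12:100109954-100110153, plus strand).
Hoxa5: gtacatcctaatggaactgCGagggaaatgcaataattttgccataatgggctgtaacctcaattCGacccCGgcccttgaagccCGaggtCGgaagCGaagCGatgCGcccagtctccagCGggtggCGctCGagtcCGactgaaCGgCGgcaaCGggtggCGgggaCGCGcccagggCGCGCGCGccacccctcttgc
Barhl2: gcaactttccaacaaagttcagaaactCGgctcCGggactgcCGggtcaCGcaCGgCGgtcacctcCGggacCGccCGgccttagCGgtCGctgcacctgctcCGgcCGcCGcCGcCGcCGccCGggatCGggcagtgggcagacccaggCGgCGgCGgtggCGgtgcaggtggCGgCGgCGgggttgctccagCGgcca
Wnt5b: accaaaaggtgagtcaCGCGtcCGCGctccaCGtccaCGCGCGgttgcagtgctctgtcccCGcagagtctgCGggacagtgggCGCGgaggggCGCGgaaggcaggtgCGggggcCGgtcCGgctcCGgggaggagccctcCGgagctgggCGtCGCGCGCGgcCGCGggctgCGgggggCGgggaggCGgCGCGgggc
Kcng3: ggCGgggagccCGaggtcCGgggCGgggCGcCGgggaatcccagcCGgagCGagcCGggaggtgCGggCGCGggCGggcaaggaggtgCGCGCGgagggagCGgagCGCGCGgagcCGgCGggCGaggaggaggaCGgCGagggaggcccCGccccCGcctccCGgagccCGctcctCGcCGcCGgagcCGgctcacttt
Tdrd5: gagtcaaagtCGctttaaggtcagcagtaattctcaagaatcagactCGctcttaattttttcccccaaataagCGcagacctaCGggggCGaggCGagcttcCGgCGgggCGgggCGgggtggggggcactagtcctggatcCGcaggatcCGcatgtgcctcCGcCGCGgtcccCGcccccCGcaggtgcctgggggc
Rpl34: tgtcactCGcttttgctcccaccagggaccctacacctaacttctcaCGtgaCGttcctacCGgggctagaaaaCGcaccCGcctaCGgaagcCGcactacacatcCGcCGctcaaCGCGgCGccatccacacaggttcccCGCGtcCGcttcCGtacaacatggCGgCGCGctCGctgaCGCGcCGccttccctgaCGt
Psmc1: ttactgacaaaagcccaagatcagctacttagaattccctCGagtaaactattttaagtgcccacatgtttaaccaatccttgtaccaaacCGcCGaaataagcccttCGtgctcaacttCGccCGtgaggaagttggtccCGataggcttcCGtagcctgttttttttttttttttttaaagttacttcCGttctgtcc

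The genes were picked for a high CpG ratio, so their CpG numbers are shown as examples of the sequence and do not compare the sets. The 200 bases held 22 CpG in *Hoxa5*, 27 in *Barhl2*, 31 in *Wnt5b*, 33 in *Kcng3* and 17 in *Tdrd5*, against 25 in *Rpl34* and 9 in *Psmc1*. G and C made up 82.5% of the *Kcng3* sequence and 42.5% of that of *Psmc1*, the extremes of the 7. The nearest peak lay 98.8 kb from a TSS of *Hoxa5*, 237 kb from *Barhl2*, 30.3 kb from *Wnt5b*, 36.3 kb from *Kcng3* and 221 kb from *Tdrd5*, while a TSS of *Rpl34* and of *Psmc1* lay inside a peak.

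Few CpG-rich promoters had their nearest peak close to the limit of 3 kb. A TSS lay inside a peak in 4181 genes (42.6%), a peak came within 1 kb in another 1815 (18.5%), and 157 (1.60%) had their nearest peak beyond 1 kb but within 3 kb. The last gene inside the limit was *Slc5a5* at 2990 bp, and others close to it were *Arhgef39* at 2916 bp and *Mok* and *Dnajc16* at 2875 bp. The first genes outside it were *Tomm34* at 3016 bp, *Ankrd13b* at 3020 bp, *Elavl2* at 3037 bp, *Chrd* at 3041 bp and *Bcl7c* at 3061 bp. Of the 10988 CpG-poor autosomal promoters, 9086 had no peak within 3 kb, a share of 82.7% (82 to 83.4%). Peak width mattered for these shares. When only peaks wider than the median of 913.5 bp were used, 57.2% (56.2 to 58.2%) of the CpG-rich promoters lacked one.

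Genes for developmental transcription factors were mostly without a peak. Of 212 such genes with a CpG-rich promoter, 188 lacked one, a share of 88.7% (83.7 to 92.3%) against 37.3% over all CpG-rich promoters. The 25 CpG-rich Hox genes, which set position along the body axis, were without a peak to the last gene (86.7 to 100%), and the median distance from their TSS to a peak was 98.8 kb. The 3 with the highest CpG ratio were *Hoxa5* (0.995), *Hoxa13* (0.931) and *Hoxa4* (0.918). The median ratio over the 25 Hox genes was 0.729, below the median of 0.797 over the CpG-rich promoters with a peak. Among the other homeobox genes 80 of 89 had no peak (89.9%, 81.9 to 94.6%), led in CpG ratio by *Barhl2* (1.07), the midbrain regulator *En2* (1) and *Nkx6-2* (0.981), which acts in oligodendrocytes. *En2* lay 42.8 kb from the nearest peak and *Nkx6-2* lay 193 kb from it.

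The smaller families followed the same course. No peak was found at the 6 Pax genes, which specify organs such as kidney and eye (61 to 100%), or at the 3 Zic genes *Zic1*, *Zic2* and *Zic4* (43.9 to 100%). The 2 Gata genes, *Gata2* of blood and *Gata5* of heart and gut, also had none, but with so few genes the interval (34.2 to 100%) held the background. Of the lineage basic helix-loop-helix genes, 23 of 26 lacked a peak (88.5%, 71 to 96%), among them the neural crest and mesoderm factor *Twist1*, 527 kb from a peak. Counts were 8 of 9 for POU genes, 7 of 8 for T-box genes, 23 of 29 for forkhead genes and 11 of 15 for Sox genes. *Pou4f1* of sensory neurons had a CpG ratio of 1.02 and lay 707 kb from a peak, and *Foxo1*, a transcription factor downstream of insulin, had a ratio of 1.06 and lay 133 kb away. *Sox11*, a factor of neuronal differentiation, lay 260 kb away. Sox and forkhead genes thus had the lowest shares in this class, 73.3% (48 to 89.1%) and 79.3% (61.6 to 90.2%), with intervals that overlapped those of the Hox genes in both cases.

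The 24 developmental transcription factor genes that did have a peak included several known from stem cells. These genes were looked up after their values were seen. *Sox2*, a core pluripotency factor, *Tbx3* and *Gbx2*, both linked to self-renewal of mESCs, had a TSS inside a peak, and *Foxd3*, needed in the early embryo, had a peak at 599 bp. *Foxm1* and *Foxo3*, forkhead genes with broad roles in cell cycle and stress, had a TSS inside a peak, as did *Hes1*, *Sox4* and *Pou2f1*. The 9 genes of the other homeobox list with a peak were *Gbx2*, *Lmx1b*, *Gsc2*, *Prox2*, *Dlx2*, *Hhex*, *Irx5*, *Nkx1-1* and *Meis2*. Genes with a peak were thus not limited to those known from stem cells or with broad roles. The promoters of the 24 were richer in CpG than those of the 188 without a peak, with a median ratio of 0.833 against 0.747.

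**Figure D1:**
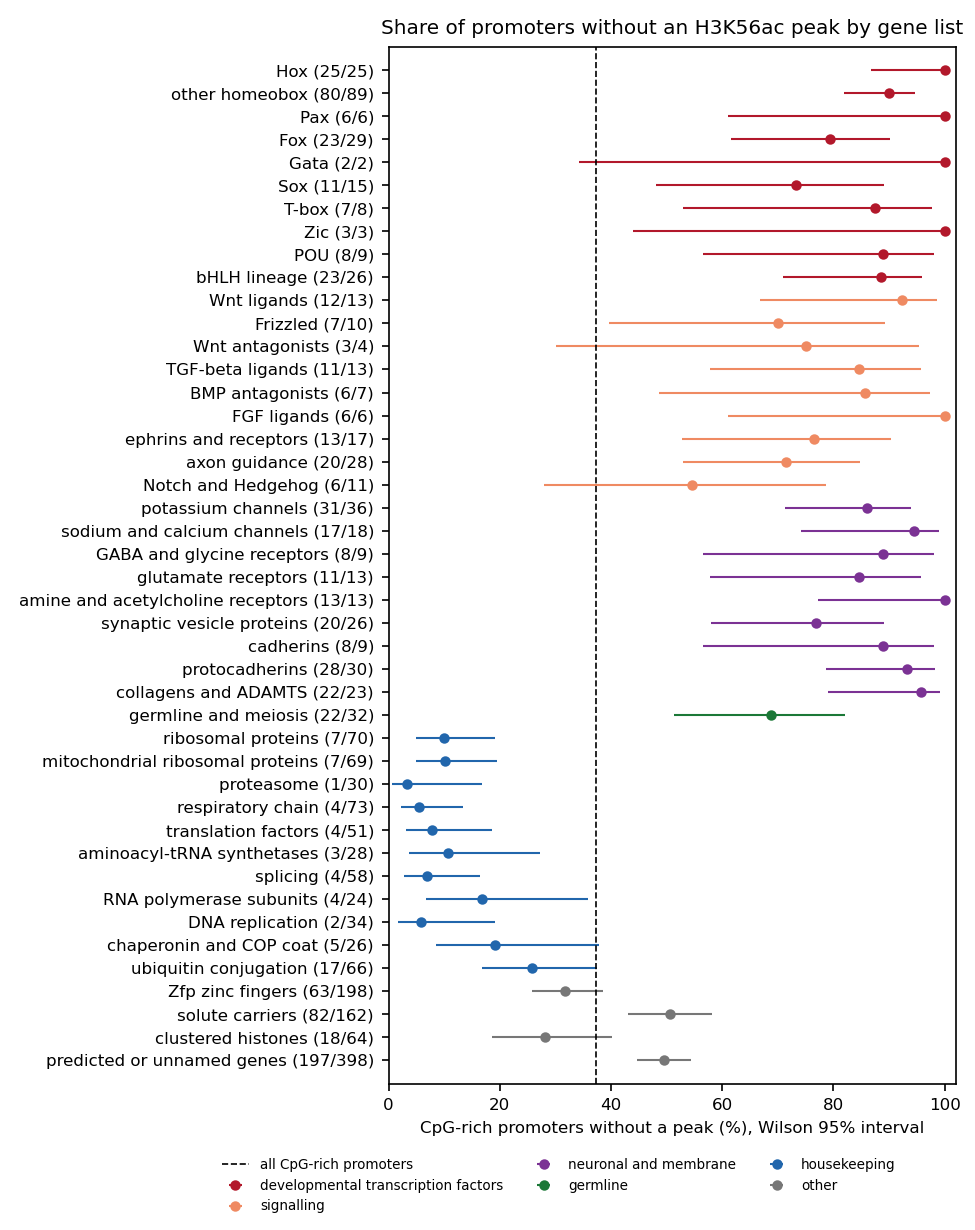
Share of CpG-rich promoters without a peak (x axis, percent) in each of 44 gene lists (y axis, with counts without a peak and in all), as points with Wilson 95% intervals, coloured by class. The dashed line is the 37.3% of all CpG-rich promoters. Points of the 28 lists of developmental, signalling and neuronal genes lie to its right, and those of the 11 housekeeping lists to its left.

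Signalling genes of the embryo were mostly without a peak, 84 of 109 (77.1%, 68.3 to 84%). Among secreted ligands this was the case for 12 of 13 Wnt genes (92.3%, 66.7 to 98.6%), 6 of 6 FGF genes and 11 of 13 genes of the TGF-beta family. *Wnt5b*, *Wnt9a* and *Wnt4* had CpG ratios of 1.01, 0.992 and 0.859. *Bmp2*, which patterns mesoderm and bone, had a ratio of 1.08 and lay 705 kb from a peak, and *Fgf8*, an organiser signal of the gastrula and limb, lay at 5.32 kb. The FGF genes were the nearest of these ligand families to a peak, with a median of 16.4 kb against 68.4 kb for the Wnt genes. Antagonists also lacked a peak in most cases, 6 of 7 for the BMP inhibitors, *Nog* and *Fst* included, and 3 of 4 for the Wnt inhibitors (*Sfrp2*, *Wif1* and *Sfrp5*). The interval of the latter (30.1 to 95.4%) held the background. The Frizzled receptor genes had a lower share than the Wnt, FGF and TGF-beta ligands, with a wide interval, 7 of 10 (70%, 39.7 to 89.2%). Shares were also lower in lists that hold ligands and receptors together. They were 13 of 17 for ephrins and their receptors and 20 of 28 for axon guidance genes, with wide intervals. The lowest share of the class was that of the Notch and Hedgehog genes, 6 of 11 (54.5%, 28 to 78.7%), an interval that held the background. *Gli3*, *Jag2* and *Ihh* were without a peak there, whereas *Ptch1* and *Gli2* had a TSS inside one.

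Genes of neurons, adhesion and matrix lacked a peak about as often as the developmental transcription factors, in 158 of 177 (89.3%, 83.8 to 93%). Ion channels without a peak comprised 31 of 36 potassium channel genes and 17 of 18 sodium, calcium and HCN channel genes (94.4%, 74.2 to 99%). *Kcng3*, *Kcnj12* and *Kcnk9* led the former in CpG ratio, and *Cacna1i*, *Cacng4* and *Cacna1b*, subunits of voltage-gated calcium channels, the latter. Receptors for transmitters lacked a peak in 13 of 13 amine and acetylcholine receptor genes (77.2 to 100%), 11 of 13 glutamate receptor genes and 8 of 9 GABA and glycine receptor genes, and the last group lay a median of 488 kb from a peak. Counts were 20 of 26 for synaptic vesicle and synapse organiser genes, 28 of 30 for protocadherins, 8 of 9 for cadherins and 22 of 23 for collagens and ADAMTS proteases. The cadherin with a peak was *Cdh1*, the E-cadherin of epithelia and mESCs, while *Cdh2*, the N-cadherin of neural and mesodermal cells, lay 1886 kb from the nearest peak.

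Germline and meiosis genes, 22 of 32 without a peak (68.8%, 51.4 to 82%), also exceeded the background. *Tdrd5*, the cohesin subunit *Stag3* and *Meiob*, a factor of meiotic recombination, were those of highest CpG ratio. The 22 promoters had a median GC content of 57.1% and a median CpG-rich stretch of 855 bp, less than the 62.6% and 1440 bp of the developmental transcription factors.

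Housekeeping genes were at the other end, with 58 of 529 CpG-rich promoters without a peak (11%, 8.58 to 13.9%). Shares were 7 of 70 for ribosomal proteins, 7 of 69 for mitochondrial ribosomal proteins, 4 of 73 for the respiratory chain, 4 of 58 for splicing factors, 4 of 51 for translation factors, 3 of 28 for aminoacyl-tRNA synthetases and 2 of 34 for DNA replication. The proteasome had 1 of 30, and this gene was *Psmb9*, a subunit of the immunoproteasome, which is induced by interferon. The intervals of these 8 lists ended below the background, the highest bound being 27.2% for the tRNA synthetases. RNA polymerase subunits (4 of 24, 6.68 to 35.9%) also stayed below it. Ubiquitin conjugation genes had the highest share, 17 of 66 (25.8%, 16.7 to 37.4%), followed by chaperonin and COP coat genes with 5 of 26 (19.2%, 8.51 to 37.9%), and both intervals reached the background. With only the wider peaks the share of the whole class rose from 11% to 25.3% (21.8 to 29.2%), still below the 57.2% of all CpG-rich promoters.

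The housekeeping genes without a peak included central ones. Among them were *Rps29* of the small ribosomal subunit at 9.04 kb from a peak, *Polr2b*, the second largest subunit of RNA polymerase II, at 41.2 kb, and *Mcm4* of the replicative helicase at 40.3 kb. *Hnrnpa2b1* and *Sf3a2*, both of RNA processing, each had a CpG ratio of 1.04. Others were paralogs of better known housekeeping genes, such as *Eif5a2*, *Eif4e3*, *Copz2* and *Eif3j2*. In *Eif3j2*, 11.8% of the 75-base stretches of the promoter were found elsewhere in the genome, and in *Rps29* 28.7%. As a class the 58 lay a median of 24.1 kb from a peak, against 86.2 kb for the 188 developmental transcription factors.

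In the remaining lists the shares were more moderate. C2H2 zinc finger genes named Zfp lacked a peak in 63 of 198 (31.8%, 25.7 to 38.6%), clustered histone genes in 18 of 64 (28.1%, 18.6 to 40.1%), solute carriers in 82 of 162 (50.6%, 43 to 58.2%) and predicted or unnamed genes in 197 of 398 (49.5%, 44.6 to 54.4%). The intervals of the first 2 held the background and those of the last 2 lay above it. Most members belonged to none of the lists. These were 2797 genes, 76.3% of the members, out of 7939 CpG-rich genes outside the lists, a share of 35.2% (34.2 to 36.3%). The 5 members of highest CpG ratio over all were *Caap1* (1.17), the chromatin remodeller *Chd7* (1.14), *Nfix* (1.12), *Klf14* (1.11) and *Plekhj1* (1.11).

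Over all CpG-rich promoters the share without a peak was lower at higher CpG ratios, and developmental transcription factors and housekeeping genes kept apart in each range of the ratio. It was 46.7% (44.8 to 48.7%) of the 2443 promoters with a ratio of 0.6 to 0.7, 38.5% at 0.7 to 0.8, 32.4% at 0.8 to 0.9 and 29.8% (27.8 to 31.9%) of the 1854 over 0.9. Among developmental transcription factors it went from 72 of 74 (97.3%, 90.7 to 99.3%) in the lowest of these ranges to 25 of 33 (75.8%, 59 to 87.2%) in the highest. Among housekeeping genes it was 10.3%, 10.8%, 8.61% and 15.4% (9.70 to 23.5%) in the same order, with overlapping intervals. At a ratio over 0.9 the intervals of the 2 classes were thus still separate. Since the ratio was part of the selection, only its values above the limit of 0.6 are compared.

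**Figure D2:**
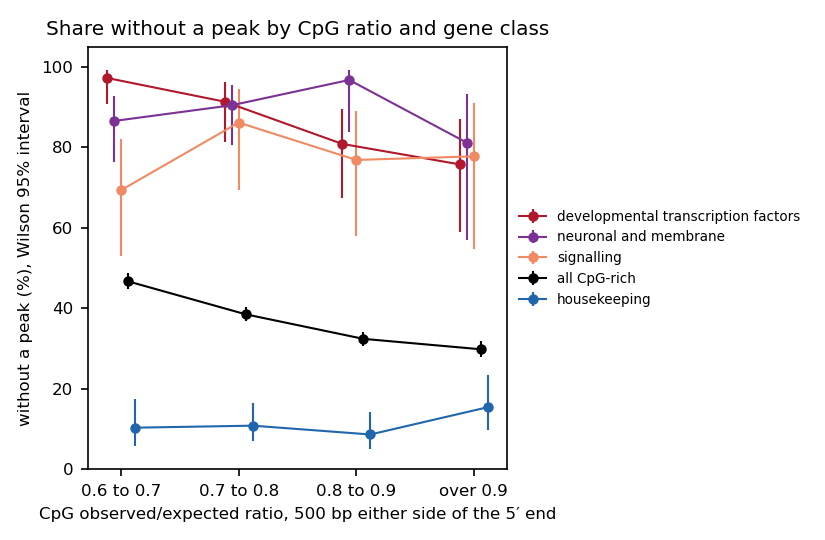
Share of promoters without a peak (y axis, percent, with Wilson 95% intervals) in 4 ranges of the CpG observed/expected ratio (x axis), for 4 gene classes and for all CpG-rich promoters. Over all promoters the share runs from 46.7% down to 29.8%, and the housekeeping points stay at or below 15.4% in each range.

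GC content ran the opposite way to the ratio. The median was 62.2% (quartiles 58.1 and 66.4%) in the 3666 promoters without a peak and 60.5% (56.4 and 65.1%) in the 6153 with one, and the promoter without a peak had the higher value in 56.7% of all pairs. For the CpG ratio the medians were 0.760 and 0.797, and the promoter without a peak was higher in 42.1% of pairs. The number of CpG in the 1 kb window was almost the same, with medians of 72 and 71 and 50.7% of pairs. Within promoters of ratio 0.7 to 0.8, those with a GC content over 60% lacked a peak in 47.8% (45.3 to 50.2%) of 1566 and those at or below 60% in 28.2% (26 to 30.6%) of 1413. A like gap was found at ratios of 0.6 to 0.7 (59.7% against 39.8%) and 0.8 to 0.9 (37.6% against 22%), and a smaller one above 0.9 (30.8% against 25.8%), where the intervals overlapped.

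The CpG-rich stretch had the same median length without and with a peak, and differed more at its long end and within ranges of the CpG ratio. The stretch was the run of 200-bp windows with at least 50% GC and a ratio over 0.6 that touched the promoter. Its median was 1050 bp both without and with a peak, and 50.2% of pairs had the longer stretch without a peak. At the long end, 216 promoters without a peak (5.89%, 5.17 to 6.7%) and 271 with one (4.40%, 3.92 to 4.95%) had a stretch over 2 kb. At ratios of 0.6 to 0.7 the share without a peak was 44.5% (42.2 to 46.8%) for stretches up to 1 kb, 52.2% (48.3 to 56.1%) for 1 to 2 kb and 58.3% (44.3 to 71.2%) for longer ones. At 0.8 to 0.9 it was 28.5% (25.5 to 31.7%), 33% (30.8 to 35.4%) and 47.6% (39.6 to 55.7%) in the same order. A stretch over 2 kb was present in 44 of 188 developmental transcription factors without a peak (23.4%), with a median of 1440 bp over the 188, and in 12 of 471 housekeeping promoters with a peak (2.55%), with a median of 1000 bp. The developmental transcription factors with a peak had stretches at least as long, with a median of 1745 bp over 24 genes. Long stretches were found at *Efna5* (3830 bp), an ephrin ligand, *Pcdh7* (3810 bp) and *Zic2* (3180 bp). The density of CpG peaked in the first 100 bp after the 5′ end, at 10.7 per 100 bp without and 10.3 with a peak. Between 900 and 1000 bp into the gene it was 3.21 without a peak, 2.63 with a peak, 5.64 in the developmental transcription factors without a peak and 2.30 in housekeeping genes with one.

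**Figure D3:**
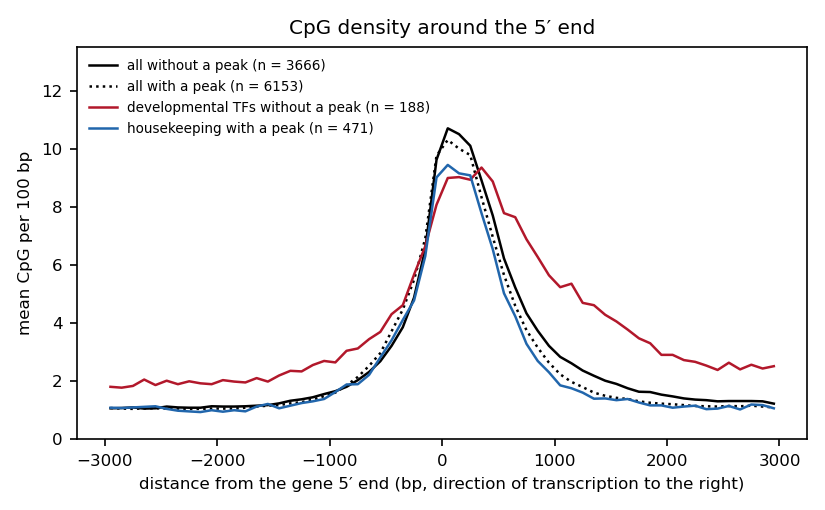
Mean number of CpG per 100 bp (y axis) in bins of 100 bp up to 3 kb on each side of the gene 5′ end (x axis, bp, transcription to the right), for 4 sets of promoters. The 2 black lines, without (solid) and with (dotted) a peak, lie close together, and the line of 188 developmental transcription factors without a peak starts lower, at 8.99 around 50 bp, and is the highest from 350 bp on, at 5.64 around 950 bp.

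Promoters without a peak rarely shared their start region with another gene. Another protein-coding TSS lay within 1 kb of the 5′ end in 428 members (11.7%, 10.7 to 12.8%) and in 1814 promoters with a peak (29.5%, 28.4 to 30.6%). A divergent neighbour, transcribed away from the gene on the opposite strand, was present in 7.12% (6.33 to 8%) and 23.1% (22.1 to 24.2%). Read from the other side, 19.1% of the 2242 promoters with another TSS within 1 kb lacked a peak, against 42.7% of the 7577 without. A peak at either start of such a pair counts for both genes, so part of this contrast follows from the rule. How large that part is was not tested. The shared start was rare in developmental transcription factors without a peak (4.26%) and common in housekeeping genes both without (37.9%) and with a peak (31.4%). Among genes outside the lists it was found in 10.8% without and 28.3% with a peak.

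Genes without a peak were longer and had fewer annotated starts. Their median length was 33.9 kb (quartiles 11.1 and 93.6 kb) against 23.8 kb (10.5 and 50.3 kb), and 23.6% (22.2 to 25%) of them exceeded 100 kb against 10.3% (9.55 to 11.1%). Of the 323 CpG-rich genes over 300 kb, 238 lacked a peak (73.7%, 68.6 to 78.2%), compared with 891 of 3029 genes of 10 to 30 kb (29.4%, 27.8 to 31.1%). At the short end the share rose again, to 44.3% (40.3 to 48.4%) of 576 genes of up to 3 kb. The neuronal and membrane genes without a peak had a median length of 101 kb, while the developmental transcription factors without one measured 5.62 kb. Members had a median of 4 TSS and the comparison promoters 5. A gene with more TSS has more places at which a peak can be counted, so length was also read within ranges of the number of TSS. Among genes with 1 TSS, 51.7% (48.6 to 54.9%) of those up to 30 kb and 67.2% (55.3 to 77.2%) of those over 100 kb lacked a peak. Among genes with 2 to 3 TSS, 37.6% of those up to 30 kb and 73.9% (68.5 to 78.7%) of those over 100 kb lacked a peak, and among genes with 4 or more TSS 23.4% and 53.3% did.

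Several motifs of broadly acting transcription factors were scarcer in the members than in the promoters with a peak, though not than in all autosomal promoters. They were searched on both strands in the 300 bp from 250 bp before to 50 bp after the 5′ end, in the reference sequence. The ETS core CCGGAAG, bound by factors such as GABPA, was present in 372 promoters without a peak (10.1%, 9.21 to 11.2%) and in 1463 with one (23.8%, 22.7 to 24.9%). It was present in 11% of all 20807 autosomal promoters, a share inside the interval of the members. Developmental transcription factors without a peak held it in 7 of 188 (3.72%, 1.82 to 7.48%) and housekeeping genes with a peak in 147 of 471 (31.2%, 27.2 to 35.5%). Of the 1835 CpG-rich promoters with a match 20.3% (18.5 to 22.2%) lacked a peak, against 41.3% (40.2 to 42.3%) of those without a match. Lower shares in members than in promoters with a peak were also found for AAGATGGCG of YY1 (1.36% against 4.11%, and 1.70% of all promoters) and TCTCGCGA of BANP (1.17% against 3.54%, and 1.35% of all). The same held for TGACGTCA, the cAMP response element (2.54% against 4.78%, and 2.43% of all), and CGCATGCGC of NRF1 (2.97% against 4.78%, and 2.20% of all). Among these motifs only NRF1 had a member interval (2.47 to 3.57%) that left out the share of all promoters, which lay below it.

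Other motifs differed less. The GC box GGGCGGGG of SP factors was present in 38.1% of promoters without and 36.5% with a peak, and in 22.1% of all promoters. The E2F core TTCCCGC gave 9.06% and 10.4% (5.82% of all), the E-box CACGTG 9.77% and 12% (7.82% of all), and CCAAT 35.6% and 39.3% (38.6% of all), with 51.6% (44.5 to 58.6%) in the developmental transcription factors without a peak. TATAAA was found in 7.12% and 5.72%, both below the 12.7% of all promoters. Part of the REST site, TTCAGCACC, was present in 17 and 25 promoters, 0.464% and 0.406%, against 0.394% of all. A match gives the presence of letters and does not show binding.

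**Figure D4:**
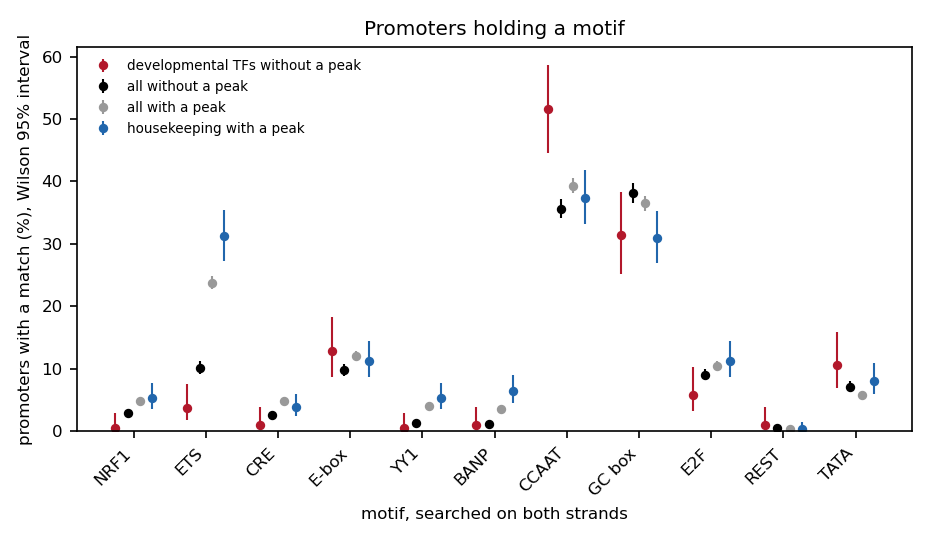
Share of promoters with at least 1 match (y axis, percent, with Wilson 95% intervals) to each of 11 motifs (x axis) in 4 sets of promoters. For the ETS motif the share rises from 3.72% in developmental transcription factors without a peak over 10.1% and 23.8% in all promoters without and with a peak to 31.2% in housekeeping genes with a peak.

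The members lay farther than 3 kb from any peak by the rule, so their distances to the nearest peak are a description only. The median distance from their nearest TSS to a peak was 57.4 kb (quartiles 22 and 150 kb), and 1265 genes were farther than 100 kb from a peak, 272 of them farther than 500 kb. Between 3 and 5 kb lay 113 members and between 5 and 10 kb 278. For 1013 members (27.6%) the peak nearest to the 5′ end was farther than 3 kb from the TSS of every protein-coding gene. A peak inside the gene body, more than 3 kb from the gene's TSS, was found in 239 members (6.52%, 5.76 to 7.36%) and in 567 genes with a promoter peak (9.22%, 8.52 to 9.96%), although members were the longer genes. *Pou2f2* had 2 such peaks and *Pcdh7*, *Cacna1i* and *Foxk1* had 1 each. Between 10 and 100 kb from the 5′ end, 40.6% (39 to 42.2%) of members and 20.1% (19.1 to 21.1%) of the other promoters had no peak, and members had fewer protein-coding genes within 100 kb, with medians of 2 and 3.

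Along the chromosomes, members formed 1924 runs of neighbouring CpG-rich genes, of which 1036 were single genes and 103 held 5 or more. Their mean length was 1.91 genes. The more numerous CpG-rich genes with a peak formed longer runs, with a mean of 3.2 genes, 399 runs of 5 or more and up to 27 genes in a run. Long runs were thus not particular to the members. The longest run of members comprised 16 genes from *Gm10409* to *Gm3739* on chromosome 14, predicted genes of a repeated family over 3.90 Mb. It also held the 5 members farthest from any peak, up to 4405 kb. In *Gm10409*, 93.2% of the 75-base stretches of the promoter occurred elsewhere in the genome. The next was a run of 14 genes over 5.78 Mb on chromosome 4 from *Gm13289* to *Caap1*, with the cell cycle inhibitors *Cdkn2a* and *Cdkn2b* in it. It opened with a series of predicted genes, and in *Gm13289* 100% of the 75-base stretches of the promoter occurred elsewhere. A run of 13 genes over 7.81 Mb on chromosome 6 ended at the neurogenic gene *Atoh1*, and one of 13 genes over 0.213 Mb held the alpha protocadherins from *Pcdha1* to *Pcdhac2*. The fifth, 12 genes over 0.155 Mb, held genes of the Hoxa cluster and ended at *Evx1*.

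Sequence that reads cannot be placed on was rare among members. The authors kept reads with a single reportable place in the genome, and 75-base stretches with another copy were present in 314 promoters without a peak (8.57%, 7.7 to 9.52%) and in 515 with one (8.37%, 7.7 to 9.09%). Stretches with a copy made up over 50% of the promoter in 72 members (1.96%, 1.56 to 2.47%) and in 6 promoters with a peak (0.0975%). Among the histone genes without a peak, *Hist1h2ap* had copies over 100% of its promoter and *Hist2h2aa1* over 60.5%. The lack of a peak at such promoters cannot be told apart from a lack of placed reads.

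Chromosomes differed in the share without a peak. It was lowest on chromosome 11, with 243 of 843 (28.8%, 25.9 to 32%), and highest on chromosome 6, with 247 of 476 (51.9%, 47.4 to 56.3%). Genes outside the lists lacked a peak in 47.5% (42.5 to 52.5%) of cases on chromosome 6 and in 34.6% (33.6 to 35.7%) on the other autosomes together. Housekeeping genes lacked one in 11 of 25 (44.0%, 26.7 to 62.9%) on chromosome 6 and in 47 of 504 (9.33%, 7.09 to 12.2%) elsewhere. Lineage genes, that is the developmental, signalling and neuronal lists together, stood at 92.3% (79.7 to 97.3%) against 85.8% (82.4 to 88.7%), with overlapping intervals. A share this high leaves little room for a rise, so this gap is not set against the others. Chromosome 6 had 0.979 peaks for each CpG-rich gene and the other autosomes 1.12.

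**Figure D5:**
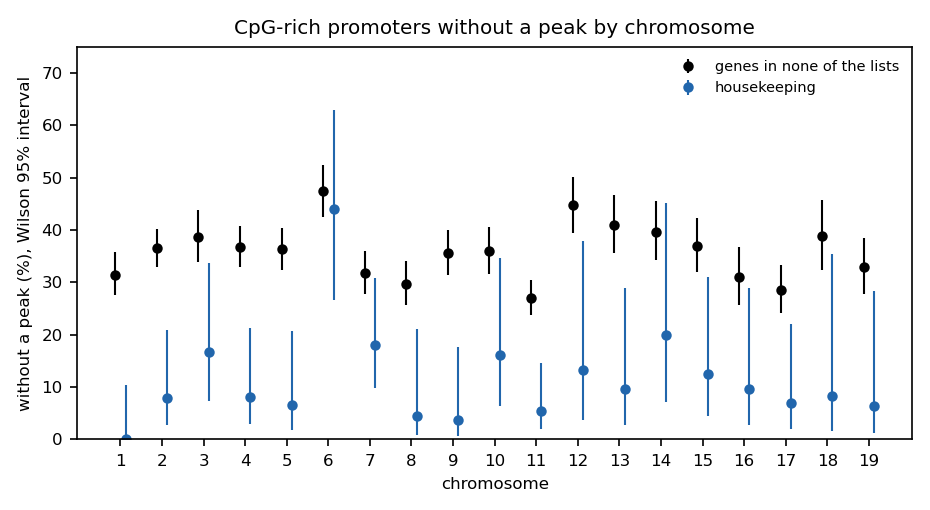
Share of CpG-rich promoters without a peak (y axis, percent, with Wilson 95% intervals) on each autosome (x axis), for genes in none of the lists and for housekeeping genes. On chromosome 6 the housekeeping share of 44.0% is close to that of the other genes, 47.5%, and on the other 18 autosomes it stays at or below 20%.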

How the data were processed

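H3K56ac ChIP-seq libraries from V6.5 mESCs were made by the study with single-end reads, of 75 bases per the methods text. The authors trimmed reads with Trim Galore, aligned them to mm10 with bowtie keeping uniquely placed reads, discarded duplicate reads using Picard, ran MACS2 for peaks, took out blacklisted regions and joined the peaks of the libraries into 1 set. The deposited file holds chromosome, start and end, and its name, score and strand columns are constant. Counts per peak were not analysed here.

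Protein-coding genes and their TSS were taken from GENCODE M21. The distance is that from any TSS of a gene to the nearest base of a peak. The CpG ratio covers 500 bp before and 500 bp from the 5′ end. Copies of 75-base stretches were searched in 65 sequences of the C57BL/6J assembly on both strands. The 44 gene lists were matched by symbol. The members and lists were chosen with earlier results of these data known, and a few patterns were corrected by gene identity. Genes named were the 3 of highest CpG ratio without a peak in a list (all where 5 or fewer), the 5 farthest from and nearest to a peak, the ends of the 5 longest runs and the 5 of highest ratio, and genes with a peak or outside this rule were chosen after their values were seen. A few genes that this rule names are not reported here. Printed sequences came from promoters without copies elsewhere and without an annotated UTR in the 200 bases. Shares have Wilson 95% intervals and medians order-statistic intervals. Calculations used Python 3.11.15, numpy 2.4.6, pandas 2.3.3, scipy 1.17.1 and numba 0.67.0, and the statistics were tested on simulated data.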

Additional observations from a re-analysis of the deposited data

How the results depend on the processing

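Of 70 values, 7 results under 10 alternatives, 50 stayed within the 95% interval of the reported value. The share of CpG-rich promoters without a peak was 38.9% with a limit of 1 kb, 33.4% with 10 kb, 32.9% with a CpG ratio over 0.75, 38.8% with the 5′ end alone, 38.5% with GENCODE basic transcripts and 39.6% with 1 gene for each group of 5′ ends within 1 kb. Using only peaks wider than the median of 913.5 bp moved most values. The share rose to 57.2%, that of developmental transcription factors to 93.9%, that of housekeeping genes to 25.3% and that of promoters with a shared start to 13.7%, with a median CpG ratio of 0.771 and a median distance of 93.7 kb. The distance was 52.6 kb and 69.5 kb with limits of 1 and 10 kb, 67.7 kb with the 5′ end alone and 65 kb with basic transcripts. A ratio over 0.75 gave a median ratio of 0.844, a stretch of 1190 bp and 80.9% for developmental transcription factors, and 1 gene for each group gave 7.06% with a shared start, both partly by construction. Leaving out chromosome 6, chosen after seeing the data, moved none of the 7 values beyond its interval. In each setting developmental transcription factors exceeded, and housekeeping genes stayed below, the share of all CpG-rich promoters.

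No paired analysis was possible because a single joined set of peaks has no value per sample. For the same reason no replicate was left out, and a stricter score was not possible because the score column is constant. The file gives no depth, and how many members would have a peak with more reads was not tested.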

Other observations

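A few values that fall outside the comparisons above were chosen after the data were seen. The 11 housekeeping genes without a peak on chromosome 6 were *Cct7*, *Copg2*, *Eif4e3*, *Hnrnpa2b1*, *Mrpl53*, *Mrps35*, *Sec61a1*, *Ube2h*, *Usp18*, *Usp39* and *Usp5*. They did not lie in 1 place. In steps of 10 Mb along the chromosome, the share of CpG-rich promoters without a peak ran from 28.3% (18 to 41.6%) of 53 genes at 120 to 130 Mb to 75% (61.2 to 85.1%) of 48 genes at 50 to 60 Mb. The step of 80 to 90 Mb, with 64 genes, stood at 48.4% (36.6 to 60.4%), and 3 of its 6 housekeeping genes lacked a peak. The cause of the high share on chromosome 6 was not tested.

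The ETS motif and a shared start also went together with the peaks when taken one within the other. Without a match and without a neighbour within 1 kb, 46.7% (45.5 to 47.9%) of 6336 CpG-rich promoters lacked a peak. With a neighbour alone the share was 20.3% (18.5 to 22.3%) of 1648, with an ETS match alone 22.5% (20.2 to 24.9%) of 1241, and with both 15.7% (13 to 18.8%) of 594. Both genes of a shared start are counted here, and a peak near one lies near the other.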
